A study of Mus musculus with 13 samples.

Results

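ISG15 conjugation and removal was followed through 6 transcripts in gamma delta intraepithelial lymphocytes, T cells resident in the lining of the gut. The 6 were chosen by name as the modifier Isg15, its activating enzyme Uba7, its conjugating enzyme Ube2l6, the ligases Herc6 and Trim25, and the deconjugating protease Usp18. They are 6 of the 21084 genes in the deposited count table, each has a single row there, and all 6 were among the 15835 genes that passed a filter on low counts. The cells were sorted from the small intestine of mice whose genotype is given as WT, and their RNA was sequenced in bulk with the SMART-Seq HT chemistry. The antibody injected intraperitoneally (200 µg) was either UC7-13D5, which binds the receptor of gamma delta T cells, or Armenian hamster IgG. A later intravenous injection held 1 µg of interferon alpha (IFNa) or only buffer (PBS) and preceded isolation by 5 hours. The antibody was given 48 and 24 hours before isolation in the treatment protocol, but at 48 or 24 hours before the second injection in the design text. The 4 groups were UC7-IFNa (UC7-13D5, then IFNa; 3 libraries), UC7-PBS (UC7-13D5, then PBS; 3 libraries), IgG-IFNa (IgG, then IFNa; 4 libraries) and IgG-PBS (IgG, then PBS; 3 libraries). Ages, and the number of mice behind each library, are not given in the sources used here, so the p-values below measure the spread between libraries that the labels call biological replicates.

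ISG15 is a ubiquitin-like protein that type I interferon induces in most cells. UBA7 activates it, UBE2L6 (UBCH8) carries it, and a ligase passes it to lysines of target proteins, in mouse cells chiefly HERC6 and in human cells HERC5. TRIM25 is better known as a ubiquitin ligase of RNA sensing and has also been reported to transfer ISG15. USP18 cuts ISG15 from its targets and, independently of that, sits on the receptor subunit IFNAR2 and restrains interferon signalling. Free ISG15 can also leave the cell and act on lymphocytes through the integrin LFA-1. In these pathways the factor ISGF3, which holds STAT2 and IRF9, binds interferon-stimulated response elements (ISRE).

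Promoter windows of Isg15, Uba7 and Ube2l6, the modifier and the first enzymes of the cascade, are shown because their matches to the ISRE core differ. The windows are RefSeq's for GRCm38.p6 and run from 250 bases before to 50 bases after the gene start. Those of Isg15, at chr4:156200769-156201068 on the minus strand, of Uba7, at chr9:107975317-107975616 on the plus strand, and of Ube2l6, at chr2:84798578-84798877 on the plus strand, read 5′ to 3′ as follows, with capitals marking matches to GAAANNGAAA on either strand, exact in Isg15 and with 1 mismatch in Uba7.
Isg15: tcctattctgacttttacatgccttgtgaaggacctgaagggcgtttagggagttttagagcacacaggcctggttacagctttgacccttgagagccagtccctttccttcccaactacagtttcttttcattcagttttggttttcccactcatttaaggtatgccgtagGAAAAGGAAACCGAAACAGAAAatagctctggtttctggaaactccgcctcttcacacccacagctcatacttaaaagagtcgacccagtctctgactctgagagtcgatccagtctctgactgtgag
Uba7: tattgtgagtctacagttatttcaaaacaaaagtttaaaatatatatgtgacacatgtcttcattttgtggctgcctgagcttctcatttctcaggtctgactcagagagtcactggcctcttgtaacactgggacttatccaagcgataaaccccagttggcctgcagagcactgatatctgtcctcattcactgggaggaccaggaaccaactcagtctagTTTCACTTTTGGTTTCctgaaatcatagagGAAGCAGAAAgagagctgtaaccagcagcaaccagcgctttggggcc
Ube2l6: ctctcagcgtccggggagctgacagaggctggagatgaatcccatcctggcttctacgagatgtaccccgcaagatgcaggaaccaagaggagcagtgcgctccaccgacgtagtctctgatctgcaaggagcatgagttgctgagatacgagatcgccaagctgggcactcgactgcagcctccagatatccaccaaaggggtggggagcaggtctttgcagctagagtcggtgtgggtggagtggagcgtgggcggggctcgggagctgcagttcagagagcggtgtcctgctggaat
The Isg15 window held 3 exact matches that overlap one another and begin 78, 72 and 66 bases before the start. It also held 1 match with a mismatch, which is not in capitals. The Uba7 window held 3 matches with 1 mismatch, a pair that overlaps before the start and another just after it, and the Ube2l6 window held none of either kind. Of 5 members with a window, which leaves out Usp18, 1 had an exact match, against 3.44% of 32851 windows of the same length. An exact match or one with 1 mismatch stood in 4 of the 5, against 35.4% of all windows, Herc6 with 1 and Trim25 with 2 such matches. A match describes letters and is not shown here to be a bound site.

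Library totals were 19867201 to 26895876 estimated counts, and the 8 genes listed as markers of gamma delta intraepithelial lymphocytes were above 0 in all 13 libraries, with a summed level of 9730 to 12491 CPM (counts scaled to a common library total). UC7-IFNa library 2 stood apart: across genes, its log2 CPM had correlations of 0.940 and 0.943 with the other libraries of its group, which correlated with each other at 0.984, and 1.14% of its counts lay on the ribosomal RNA gene Rn18s, against 0.0866% to 0.333% in the others. Sex-linked transcripts moved with the antibody. Xist, from the inactive X chromosome, was at most 1.08 CPM in the UC7-13D5 libraries, where Y-linked transcripts summed to 132 to 329 CPM. It was 204 to 345 CPM in the IgG-PBS libraries and in IgG-IFNa 1 and 2, where the Y-linked sum was at most 2.15 CPM. Both kinds were present in IgG-IFNa 3 (Xist 68.3, Y-linked sum 210 CPM) and IgG-IFNa 4 (Xist 23.4, Y-linked sum 320 CPM). Any difference between the antibodies therefore cannot be told apart from this difference. After IgG, the IFNa and PBS libraries were not balanced for these transcripts either, because of IgG-IFNa 3 and 4. Results that draw on the IFNa comparison after IgG share this limit, and some are given below without those libraries. The 8 markers of secretory epithelium, all above 0 in every library, summed to 311 to 988 CPM in UC7-IFNa and 793 to 1812 in UC7-PBS libraries, and to 512 to 1106 CPM in IgG-IFNa and 78.1 to 504 in IgG-PBS libraries. After IgG these sums did not overlap and 2 of the 8 were past the threshold as higher with IFNa; the part of such cells in the results below was not tested. Summed markers of absorptive enterocytes (8 of 8 found, 144 to 235 CPM), alpha beta T cells (5 of 5, 1404 to 2324 CPM), B and plasma cells (4 of 6, 84.3 to 247 CPM), myeloid cells (6 of 6, 101 to 208 CPM) and stroma (4 of 5, 12.8 to 35.3 CPM) overlapped between IFNa and PBS libraries after either antibody. The summed levels do not measure the purity of the sort. Among single markers, the delta constant gene Trdc stood at 163 to 211 CPM and the alpha constant gene Trac at 166 to 416 CPM. The gamma constant genes Trgc1, Trgc2 and Trgc4 stood at 447 to 2096.5 CPM, and the beta constant genes Trbc1 and Trbc2 at 544 to 1204 CPM. In bulk RNA, fewer cells that carry a transcript and less of it per cell cannot be told apart.

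Each IFNa injection was compared with PBS after the same antibody, in 1 model of all 13 libraries. Of the 6 members, 3 rose with IFNa after UC7-13D5 (Usp18, Ube2l6 and Isg15), where 0.335% of the 15835 genes tested were called higher, and 2 rose after IgG (Usp18 and Ube2l6), where 0.619% were. A gene is called at an adjusted p under 0.05, from edgeR's quasi-likelihood F test with Benjamini-Hochberg adjustment over all tested genes, and none of the 6 was called lower, where 0.0253% of genes were after UC7-13D5 and 0.208% after IgG. Averaged over both antibodies, all 6 rose, where 1.57% of genes did. The median log2 fold change of the members was 1.23 after UC7-13D5 against 0.022 for all tested genes, and 0.76 after IgG against -0.012. Usp18 had the largest and Trim25 the smallest fold change of the 6 after either antibody.

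**Figure D1:**
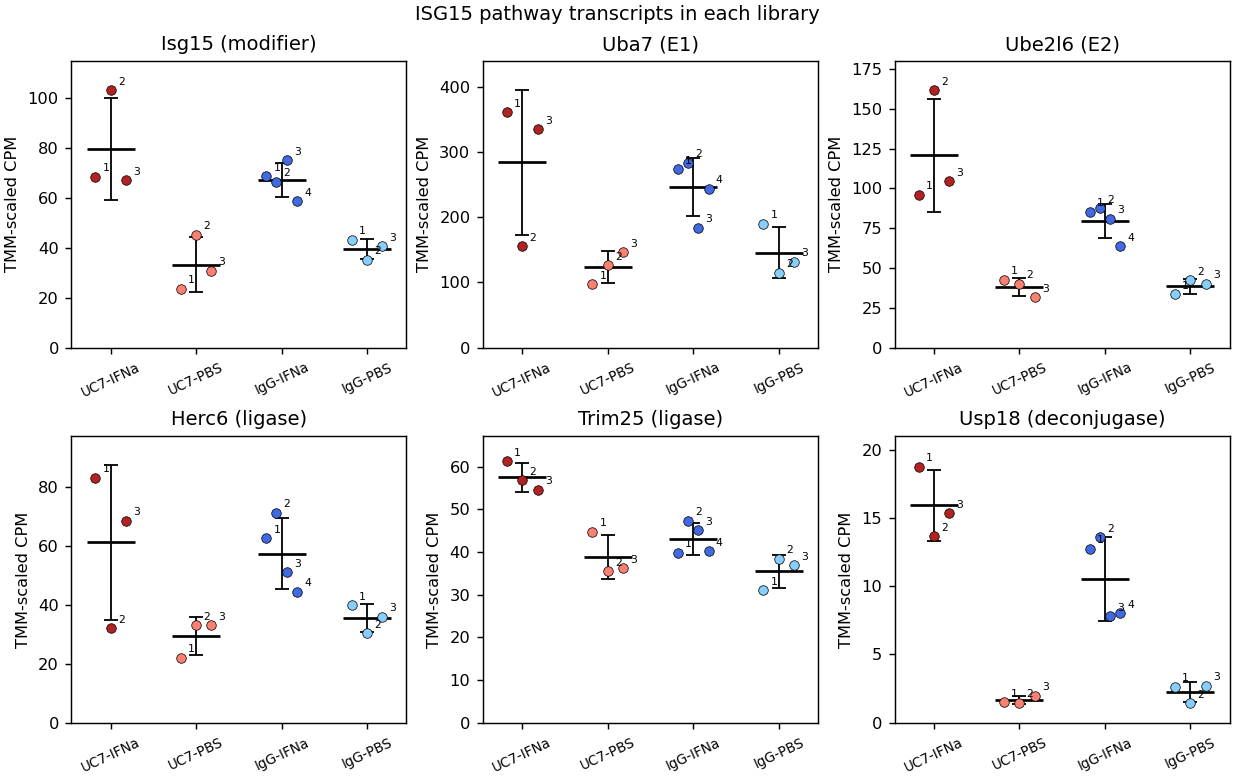
TMM-scaled CPM of each of the 6 transcripts in the 13 libraries (numbered points), by group, with the group mean (bar) and SD (whiskers). Usp18 and Ube2l6 libraries given IFNa lie above all those given PBS after the same antibody, while UC7-IFNa library 2 lies lowest of its group for Uba7 and Herc6 and highest for Isg15 and Ube2l6.

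Isg15 (ENSMUSG00000035692, mm39 chromosome 4, 156283912 to 156285254, minus strand), the modifier itself, had 68.5, 103 and 67.1 CPM in UC7-IFNa libraries 1 to 3, against 23.6, 45.4 and 30.8 CPM in UC7-PBS libraries. After IgG it had 68.9, 66.6, 75.2 and 58.8 CPM in IgG-IFNa libraries 1 to 4, against 43.2, 35.3 and 40.6 CPM in IgG-PBS libraries. Every IFNa library was above every PBS library after either antibody. It rose 2.39-fold after UC7-13D5 (log2 fold change 1.26, SE 0.23, edgeR adjusted p = 0.0192), and after IgG the log2 estimate was 0.76 (SE 0.21, edgeR adjusted p = 0.131). The estimate after IgG was called under 3 of 21 alternatives, 1 of them with a single library left out. The call after UC7-13D5 ended without UC7-PBS library 1 or 3, at log2 fold changes of 1.06 and 1.21. It also ended when IgG-IFNa libraries 3 and 4, which carried both kinds of sex-linked transcript, were left out of the model (1.26, edgeR adjusted p = 0.0530), with the replicate number as a block (1.27, edgeR adjusted p = 0.0505) and with only the groups compared in the model (1.24, edgeR adjusted p = 0.408).

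Uba7 (ENSMUSG00000032596, chromosome 9, 107852704 to 107861260), the E1 enzyme that starts the cascade, had 361, 156 and 335 CPM in UC7-IFNa libraries, against 97.3, 126 and 146 CPM in UC7-PBS libraries. In IgG-IFNa libraries it had 274, 284, 184 and 244 CPM, against 190, 115 and 132 CPM in IgG-PBS libraries. UC7-IFNa library 2 held less than its group mates by more than the whole spread of the PBS libraries, and IgG-IFNa library 3 lay below the highest IgG-PBS library. Neither arm alone passed the test: the log2 fold change was 1.21 after UC7-13D5 (SE 0.28, edgeR adjusted p = 0.129) and 0.76 after IgG (SE 0.27, edgeR adjusted p = 0.270). Without UC7-IFNa library 2 both did, at 1.49 (edgeR adjusted p = 0.00115) and 0.76 (edgeR adjusted p = 0.0365). The rise averaged over antibodies was 0.98 (SE 0.19, edgeR adjusted p = 0.0143), and that call ended without UC7-PBS library 1 or IgG-PBS library 2 or 3 (0.91 to 0.95) and with the replicate block (0.97, edgeR adjusted p = 0.0596).

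Ube2l6 (ENSMUSG00000027078, chromosome 2, 84629172 to 84640680), the E2 enzyme that takes ISG15 over from UBA7, had 96.2, 162 and 105 CPM in UC7-IFNa libraries, against 42.5, 40.0 and 31.6 CPM in UC7-PBS libraries. In IgG-IFNa libraries it had 85.5, 87.5, 80.9 and 63.8 CPM, against 33.4, 42.1 and 40.0 CPM in IgG-PBS libraries. The lowest IFNa library was well above the highest PBS library in both arms, and the PBS groups overlapped each other. It rose 3.17-fold after UC7-13D5 (log2 fold change 1.67, SE 0.21, edgeR adjusted p = 0.000495), and 2.06-fold after IgG (log2 fold change 1.04, SE 0.19, edgeR adjusted p = 0.0195). The call after IgG ended without IgG-IFNa library 2 or 3 or any 1 IgG-PBS library (log2 fold changes of 0.95 to 1.11), without IgG-IFNa libraries 3 and 4 together (1.17, edgeR adjusted p = 0.107) and with the Y-linked share of sex-linked transcripts as a covariate (1.18, edgeR adjusted p = 0.0577). The call after UC7-13D5 ended with only the groups compared in the model (edgeR adjusted p = 0.0555).

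Herc6 (ENSMUSG00000029798, chromosome 6, 57557985 to 57641618), the main ISG15 ligase of mouse cells, had 83.1, 31.9 and 68.5 CPM in UC7-IFNa libraries, against 22.1, 32.9 and 33.1 CPM in UC7-PBS libraries. In IgG-IFNa libraries it had 62.6, 71.2, 50.9 and 44.4 CPM, against 39.8, 30.4 and 36.0 CPM in IgG-PBS libraries. UC7-IFNa library 2 lay among the UC7-PBS libraries, and after IgG the groups did not overlap. The log2 fold change was 1.06 after UC7-13D5 (SE 0.29, edgeR adjusted p = 0.251) and 0.70 after IgG (SE 0.27, edgeR adjusted p = 0.339). Without UC7-IFNa library 2 both arms passed, at 1.36 (edgeR adjusted p = 0.00184) and 0.70 (edgeR adjusted p = 0.0457). The rise averaged over antibodies, 0.88 (SE 0.20, edgeR adjusted p = 0.0299), stayed called when UC7-IFNa library 2, IgG-IFNa library 3 or IgG-IFNa library 4 was left out, and it ended without any other single library (0.74 to 0.93), without IgG-IFNa libraries 3 and 4 together (0.99, edgeR adjusted p = 0.0560) and with the replicate block (0.92, edgeR adjusted p = 0.0798). A same-strand gene, Gm45193, overlaps Herc6 and held at most 5.13% as many counts in any library.

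Trim25 (ENSMUSG00000000275, chromosome 11, 88890202 to 88911120), the ligase shared with ubiquitin, had 61.2, 56.7 and 54.6 CPM in UC7-IFNa libraries, against 44.8, 35.5 and 36.2 CPM in UC7-PBS libraries. In IgG-IFNa libraries it had 39.8, 47.3, 45.1 and 40.2 CPM, against 31.0, 38.4 and 36.9 CPM in IgG-PBS libraries. The IFNa libraries lay above the PBS libraries in both arms, by a narrow margin after IgG. Its log2 fold change was 0.57 after UC7-13D5 (SE 0.15, edgeR adjusted p = 0.224) and 0.28 after IgG (SE 0.14, edgeR adjusted p = 0.499). The rise averaged over antibodies was 0.42 (SE 0.10, edgeR adjusted p = 0.0443), and it stayed called without UC7-IFNa library 2 or UC7-PBS library 1 but not without any other single library (0.38 to 0.46). The call also ended with no low-count filter (0.42, edgeR adjusted p = 0.0729), with the replicate block (0.44, edgeR adjusted p = 0.153), with the Y-linked covariate (0.44, edgeR adjusted p = 0.107) and without IgG-IFNa libraries 3 and 4 (0.43, edgeR adjusted p = 0.151).

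Usp18 (ENSMUSG00000030107, chromosome 6, 121222865 to 121247877), the protease that removes ISG15, had 18.8, 13.6 and 15.4 CPM in UC7-IFNa libraries, against 1.51, 1.47 and 1.97 CPM in UC7-PBS libraries. In IgG-IFNa libraries it had 12.7, 13.6, 7.78 and 8.0 CPM, against 2.62, 1.40 and 2.72 CPM in IgG-PBS libraries. The groups were far apart in both arms, and IgG-IFNa libraries 3 and 4 lay below libraries 1 and 2. It rose 9.60-fold after UC7-13D5 (log2 fold change 3.26, SE 0.32, edgeR adjusted p = 4.01e-05), and 4.66-fold after IgG (log2 fold change 2.22, SE 0.29, edgeR adjusted p = 0.00172). These were the 29th and 74th highest fold changes of 15835 genes. Usp18 stayed called in both arms without any 1 library, at 3.13 to 3.41 after UC7-13D5 and 1.98 to 2.38 after IgG, and without IgG-IFNa libraries 3 and 4 together (2.54 after IgG). It was the member with the fewest counts, 35 to 476 per library, against 2253 to 9176 for Uba7. The antisense gene Gm44148 overlaps it and held 2 to 13 counts, up to 25.7% of Usp18; whether the counting used strand is not given in the sources used here.

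Averaged over antibodies, Isg15 rose on the log2 scale by 1.01 (SE 0.15, edgeR adjusted p = 0.00247), Ube2l6 by 1.36 (SE 0.14, edgeR adjusted p = 5.67e-05) and Usp18 by 2.74 (SE 0.22, edgeR adjusted p = 1.93e-06), and these 3 calls held without any 1 library. Within an arm, the IFNa libraries lay above all PBS libraries for 5 of 6 members after UC7-13D5, all but Herc6, where 5.89% of tested genes did so. After IgG they did so for 5 of 6, all but Uba7, where 7.09% of genes did.

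**Figure D2:**
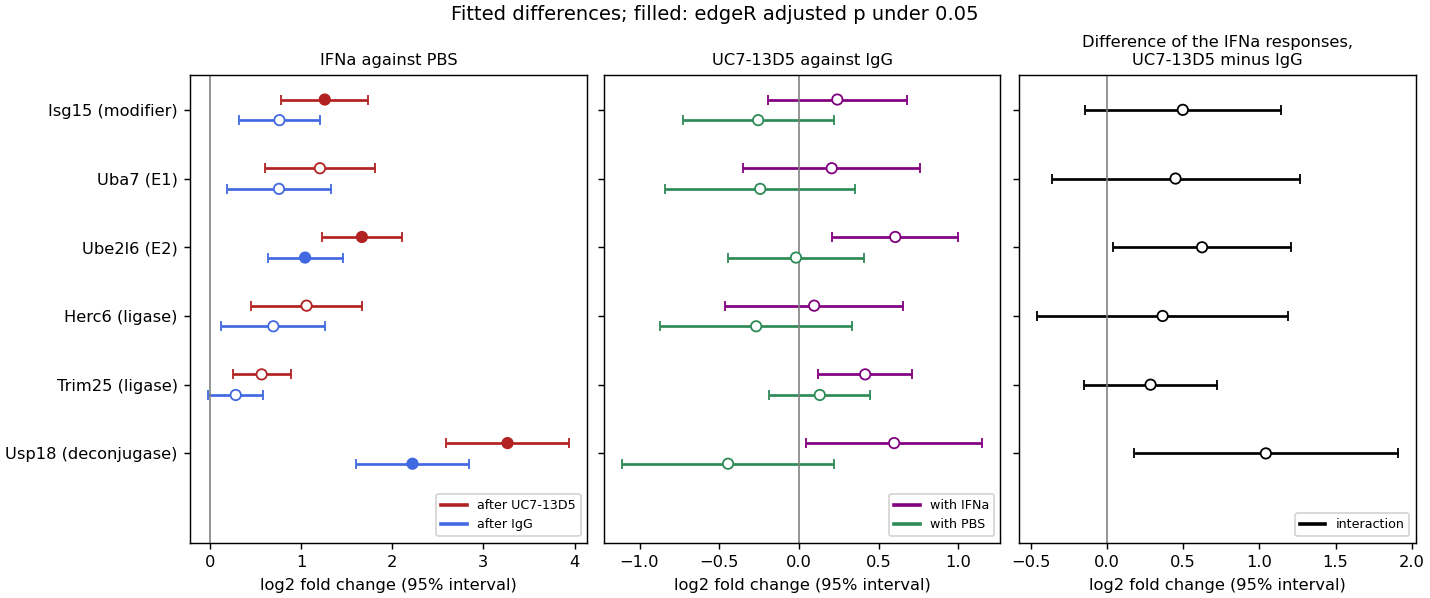
Log2 fold changes of the 6 members with 95% intervals from the model, for IFNa against PBS after each antibody (left), UC7-13D5 against IgG with each injection (middle) and the difference of the IFNa responses (right). Filled points are called: Isg15, Ube2l6 and Usp18 after UC7-13D5 and Ube2l6 and Usp18 after IgG, and no point in the other panels.

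Whether the antibody moved these transcripts was compared within each injection. With IFNa, 0 of 6 members were called between UC7-13D5 and IgG by edgeR, where 6 of the 15835 genes (0.0379%) were called higher and 6 lower. Of the members, 3 had an unadjusted p under 0.05, where 1138 of the 15835 genes did, and DESeq2 called 0. Those 3 were Ube2l6, at 121 ± 35.7 CPM in UC7-IFNa and 79.4 ± 10.8 in IgG-IFNa libraries (SD, n = 3 and 4), Trim25, at 57.5 ± 3.40 and 43.1 ± 3.72 CPM, and Usp18, at 15.9 ± 2.60 and 10.5 ± 3.06 CPM in the same groups. They were also the 3 members whose UC7-IFNa libraries all lay above the IgG-IFNa libraries, for Usp18 by a narrow margin, where 3.73% of tested genes did so. Their log2 fold changes were 0.61 (SE 0.19, edgeR adjusted p = 0.385) for Ube2l6, 0.42 (SE 0.14, edgeR adjusted p = 0.453) for Trim25 and 0.60 (SE 0.26, edgeR adjusted p = 0.659) for Usp18. The value of Ube2l6 was 0.33 without UC7-IFNa library 2 (edgeR adjusted p = 0.825). The value of Usp18 was 0.27 without IgG-IFNa libraries 3 and 4 and 1.13 with the Y-linked covariate, and neither was called. That covariate was at least 99.6% in UC7-13D5 libraries. It was at most 1.04% in IgG libraries other than IgG-IFNa 3 and 4, which had 75.5% and 93.2%. It thus nearly follows the antibody, and the value of 1.13 leans on those libraries and does not separate antibody from sex-linked differences. For Isg15, Uba7 and Herc6 the log2 fold changes were 0.24, 0.21 and 0.096, with 95% intervals of -0.20 to 0.68, -0.35 to 0.76 and -0.46 to 0.66.

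With PBS, 0 of 6 members were called by edgeR, where 0.00632% of genes were called in either direction, and DESeq2 called 0. Of the members, 0 had an unadjusted p under 0.05, where 791 of the 15835 genes did. Mean levels in UC7-PBS and IgG-PBS libraries were 33.3 ± 11.1 and 39.7 ± 4.04 CPM for Isg15, 123 ± 24.5 and 146 ± 39.5 for Uba7, 38.0 ± 5.70 and 38.5 ± 4.56 for Ube2l6 (SD, n = 3 each). For Herc6 they were 29.4 ± 6.32 and 35.4 ± 4.72 CPM, for Trim25 38.8 ± 5.16 and 35.4 ± 3.89 CPM, and for Usp18 1.65 ± 0.278 and 2.25 ± 0.733 CPM. All 6 members' libraries overlapped between these groups, where 6.6% of genes had all UC7-PBS libraries above the IgG-PBS libraries and 5.8% had them below, and the log2 fold changes ran from -0.44 (Usp18, 95% interval -1.11 to 0.22) to 0.13 (Trim25, 95% interval -0.19 to 0.45).

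The difference of the IFNa responses, UC7-13D5 minus IgG, was tested as an interaction. Its estimate was above 0 for all 6 members, from 0.28 (Trim25) to 1.04 (Usp18) on the log2 scale, against a median of 0.016 over all tested genes. None was called by edgeR, where 0% of genes were (0 of 15835, with 502 at an unadjusted p under 0.05 and 5 called by DESeq2). The 95% intervals excluded 0 for Usp18 (0.18 to 1.91, unadjusted p = 0.0216, edgeR adjusted p = 1.00) and Ube2l6 (0.038 to 1.21, unadjusted p = 0.0383, edgeR adjusted p = 1.00), and DESeq2 called none of the members. The Usp18 estimate was 0.88 to 1.29 over the 13 ways of leaving out 1 library, and its lowest value over all 20 alternatives was 0.72. Without the IgG-IFNa libraries that carried both kinds of sex-linked transcript, the Usp18 rise after IgG was 2.54, against 2.22 with them. Whether the Usp18 interval still excluded 0 in these fits was not tested. Without UC7-IFNa library 2 the Ube2l6 estimate was 0.35, against 0.62 with it, and it was 0.35 to 0.76 over the 13 ways of leaving out 1 library. The intervals were -0.15 to 1.14 for Isg15, -0.37 to 1.26 for Uba7, -0.46 to 1.19 for Herc6 and -0.15 to 0.72 for Trim25, so a response 2-fold larger after UC7-13D5 lies within the interval of every member but Trim25.

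**Figure D3:**
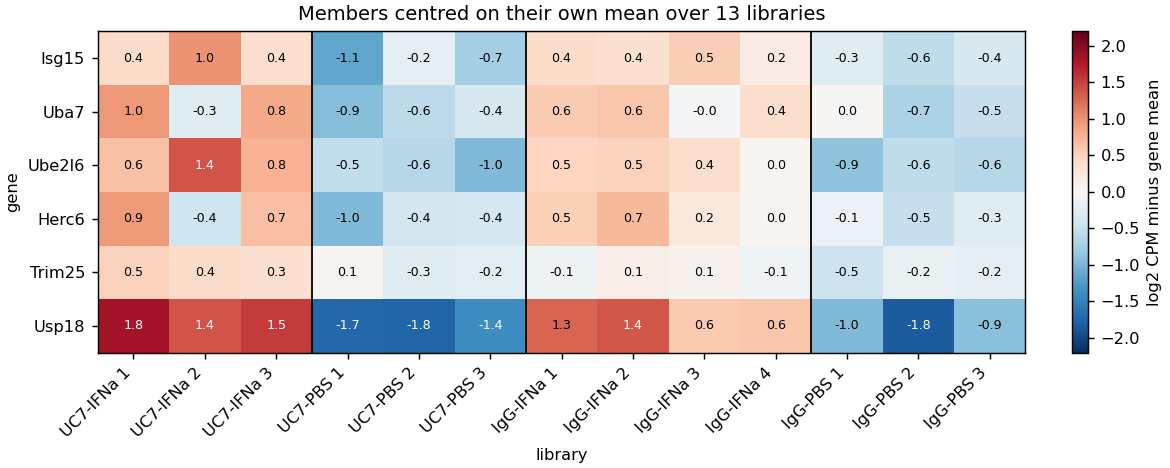
Log2 CPM of each member in each of the 13 libraries, minus that member's mean over the libraries; lines separate the groups. All UC7-IFNa and IgG-IFNa libraries stand above the mean for Usp18 and all PBS libraries below it, and in UC7-IFNa library 2 Uba7 and Herc6 are below their means while Isg15 and Ube2l6 are at their highest.

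Levels were set side by side per kilobase of each gene's principal GENCODE M21 transcript. In UC7-IFNa libraries Isg15 stood at 105 ± 27.2 CPM per kilobase, Uba7 at 88.9 ± 35.0 and Ube2l6 at 77.5 ± 22.9, Herc6 at 12.8 ± 5.53, Trim25 at 10.3 ± 0.607 and Usp18 at 8.99 ± 1.47 (SD, n = 3). In IgG-PBS libraries the values were 52.5 ± 5.34 for Isg15, 45.6 ± 12.4 for Uba7, 24.7 ± 2.92 for Ube2l6, 7.42 ± 0.990 for Herc6, 6.34 ± 0.695 for Trim25 and 1.27 ± 0.414 for Usp18 (SD, n = 3). The modifier and its E1 and E2 were above both ligases and the protease in all 4 groups. Within the upper 3 and within the lower 3, neighbours in this order did not differ beyond their SDs in UC7-IFNa libraries.

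Usp18, the protease, was set against the modifier within a library. It had 0.132 to 0.274 counts per Isg15 count in UC7-IFNa libraries, against 0.0324 to 0.0641 in UC7-PBS libraries, and 0.103 to 0.204 in IgG-IFNa libraries, against 0.0398 to 0.0669 in IgG-PBS libraries. These ranges did not overlap in either arm; they are descriptions, with no test. Trim25 had 0.752 ± 0.180 counts per Isg15 count in UC7-IFNa and 1.28 ± 0.566 in UC7-PBS libraries (SD, n = 3 each), and 0.643 ± 0.0642 in IgG-IFNa and 0.905 ± 0.185 in IgG-PBS libraries (SD, n = 4 and 3). Its ranges overlapped after UC7-13D5, and after IgG they narrowly did not, at 0.578 to 0.711 in IgG-IFNa and 0.719 to 1.09 in IgG-PBS libraries. Isg15 was itself higher in IFNa than in PBS libraries of either arm, so a gene that rose less has a lower ratio with IFNa. The share of all genes whose ratios to Isg15 did not overlap was not computed. The ratios of Uba7, Ube2l6 and Herc6 to Isg15 overlapped between IFNa and PBS libraries after either antibody. For Uba7 after UC7-13D5 the overlap rested on UC7-IFNa library 2, at 1.51. Libraries 1 and 3 stood at 5.27 and 5.00, above the 2.78 to 4.74 of UC7-PBS libraries.

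The closeness of 2 transcripts' profiles was taken as the root mean square (RMS) difference of their log2 CPM over the 13 libraries, each centred on its own mean. Among the 15 pairs of members, Uba7 and Herc6 were closest at 0.178, and Isg15 and Ube2l6 came next at 0.337. Usp18 was farthest from the others, at 0.805 to 1.19. Profiles were not scaled, so this distance takes in the size of a gene's changes as well as their shape. The SD of log2 CPM was 1.44 for Usp18 and 0.29 to 0.74 for the others. The 13 libraries share the groups and UC7-IFNa library 2, so the distances are descriptions.

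Among all other tested genes, those nearest to Usp18 were Rnf213, a large ubiquitin ligase that has been reported to bind ISG15-modified proteins (RMS 0.297), and Rtp4 (0.394), both interferon-induced. Herc6 was nearest to the helicase-like gene Ddx60 (0.176) and Ifi209 (0.192), and Uba7 to Slfn8 (0.213) and Samd9l (0.223). Isg15 was nearest to Isg20, an exonuclease (0.208), and Ms4a6d (0.216), and Ube2l6 to Lgals3bp (0.213) and Irf9 (0.248). Trim25, which varied least of the 6, was nearest to Slfn2 (0.130) and Tmem104 (0.146). The median over all genes was 0.396 for Trim25 and 0.604 to 1.41 for the other members. Of 18 neighbours with a promoter window, among 22 in all, 7 held an exact ISRE core match in any window of the gene, Cxcl10, Ddx60 and Oas3 among them. Of all windows 3.44% did, a share counted by window and not by gene.

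Other parts of the pathway and the related modifier systems were read from 10 lists of 63 genes, of which 62 were tested. In the receptor arm on which Usp18 acts, 1 of the 6 genes reported here rose after either antibody. It was Irf9, the DNA-binding part of ISGF3, at 189 ± 2.92 CPM in UC7-IFNa and 62.5 ± 9.21 in UC7-PBS libraries, and at 161 ± 17.5 in IgG-IFNa and 75.4 ± 8.32 in IgG-PBS libraries (SD, n = 3, 3, 4 and 3). Its log2 fold changes were 1.60 (SE 0.15, edgeR adjusted p = 3.84e-05) after UC7-13D5 and 1.10 (SE 0.14, edgeR adjusted p = 0.00172) after IgG. Of the 6, 2 had an unadjusted edgeR p under 0.05 after UC7-13D5 and 3 after IgG. Averaged over antibodies, edgeR called 1 and DESeq2 called 2. Stat2 had log2 fold changes of 0.79 (edgeR adjusted p = 0.393) after UC7-13D5 and 0.52 (edgeR adjusted p = 0.418) after IgG. Averaged, it had 0.66 (edgeR adjusted p = 0.0618). The receptor subunits were not called: Ifnar2, to which USP18 binds, had log2 fold changes of 0.11 (edgeR adjusted p = 0.895) after UC7-13D5 and -0.062 (edgeR adjusted p = 0.927) after IgG, and Ifnar1 had 0.30 (edgeR adjusted p = 0.777) and 0.64 (edgeR adjusted p = 0.198).

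Of 11 genes whose proteins have been reported as ISG15 targets, 1 rose after UC7-13D5 and 0 were called by edgeR after IgG, where 2 had an unadjusted p under 0.05 and DESeq2 called 1. The gene that rose was Mx1, an antiviral GTPase, at 6.45 ± 0.350 CPM in UC7-IFNa and 0.764 ± 0.275 in UC7-PBS libraries, and at 2.96 ± 1.28 in IgG-IFNa and 1.33 ± 0.598 in IgG-PBS libraries (SD, n = 3, 3, 4 and 3). Its log2 fold change was 3.07 (SE 0.45, edgeR adjusted p = 0.00296) after UC7-13D5 and 1.15 (SE 0.40, edgeR adjusted p = 0.262) after IgG. Of 7 partners of Trim25 in RNA sensing, 0 were called by edgeR in a single arm, where 2 had an unadjusted p under 0.05 after either antibody and DESeq2 called 0 after UC7-13D5 and 1 after IgG. The 2 were Zc3hav1 and Ddx58 after UC7-13D5, and Zc3hav1 and Rnf135 after IgG. Rnf135 was lower there, at -0.34 (SE 0.16, edgeR adjusted p = 0.437). Zc3hav1 had 0.49 (edgeR adjusted p = 0.467) after UC7-13D5 and 0.71 (edgeR adjusted p = 0.0537) after IgG. In that list Zc3hav1 (ZAP), an antiviral protein that needs TRIM25, rose averaged over antibodies by 0.60 (SE 0.12, edgeR adjusted p = 0.0117), a call that ended without IgG-IFNa libraries 3 and 4 (0.56, edgeR adjusted p = 0.0780) and with the replicate block (0.57, edgeR adjusted p = 0.0788). Ddx58, which encodes the RNA sensor RIG-I, had log2 fold changes of 0.57 (SE 0.22, edgeR adjusted p = 0.558) after UC7-13D5 and 0.34 (SE 0.21, edgeR adjusted p = 0.616) after IgG.

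The remaining lists held 0 genes called by edgeR or DESeq2 after either antibody, and the 1 gene with an unadjusted p under 0.05 in either arm was Usp2, in both. Averaged over antibodies, edgeR called 0 and DESeq2 called 1, in the list of other enzymes reported to act on ISG15. In that contrast Usp2 (0.72, SE 0.22, edgeR adjusted p = 0.111), Usp21 and Ufl1 had an unadjusted edgeR p under 0.05. These lists were the 4 other HERC ligases, 6 tested of 7 other enzymes reported to act on ISG15, 7 genes of the ubiquitin core, 6 of NEDD8, 9 of SUMO and 4 of UFM1 conjugation, and both chains of LFA-1. Their median log2 fold changes ran from -0.24 to 0.12 after UC7-13D5 and from -0.10 to 0.16 after IgG. The largest in either arm among the other ISG15 enzymes was that of Usp2, a ubiquitin protease, at 0.79 (SE 0.32, edgeR adjusted p = 0.572) after UC7-13D5 and 0.65 (SE 0.30, edgeR adjusted p = 0.433) after IgG. None of the E1 enzymes in these lists was called. Uba3, the NEDD8 E1 subunit, had log2 fold changes of -0.41 (SE 0.19, edgeR adjusted p = 0.661) after UC7-13D5 and -0.14 (SE 0.18, edgeR adjusted p = 0.875) after IgG, and Uba6, another ubiquitin E1, had 0.067 (SE 0.18, edgeR adjusted p = 0.957) and 0.26 (SE 0.17, edgeR adjusted p = 0.629).

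**Figure D4:**
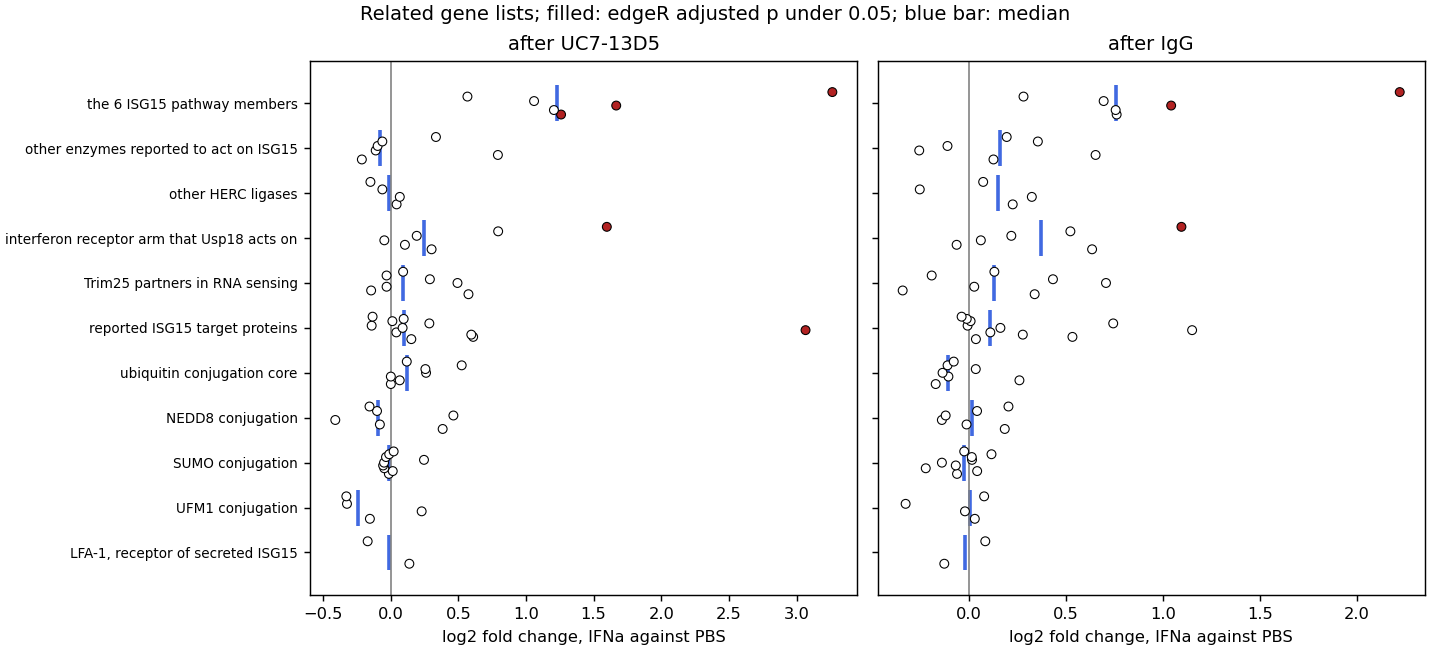
Log2 fold changes of IFNa against PBS after UC7-13D5 (left) and after IgG (right) for the 6 members and each gene of 10 related lists; filled points are called and blue bars are medians. The members' medians are 1.23 and 0.76, and the filled points outside the members are Irf9 in both panels and Mx1 after UC7-13D5.

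In UC7-IFNa library 2 the members with shorter and longer transcripts parted, apart from Trim25. Its log2 CPM minus the mean of libraries 1 and 3 was 0.61 for Isg15 (756 bases) and 0.69 for Ube2l6 (1560 bases), but -1.16 for Uba7 (3195 bases) and -1.24 for Herc6 (4767 bases). It was -0.31 for Usp18 (1771 bases) and -0.026 for Trim25 (5590 bases). Over the 15803 tested genes with a known length, the median difference was 0.65 in the shortest 25%, 0.090 and -0.28 in the next ones, and -0.37 in the longest. Without this library the members called were 5 in the UC7-13D5 arm and 5 in the IgG arm, all but Trim25, against 3 and 2 with it. The part of transcript length in these calls was not tested.

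**Figure D5:**
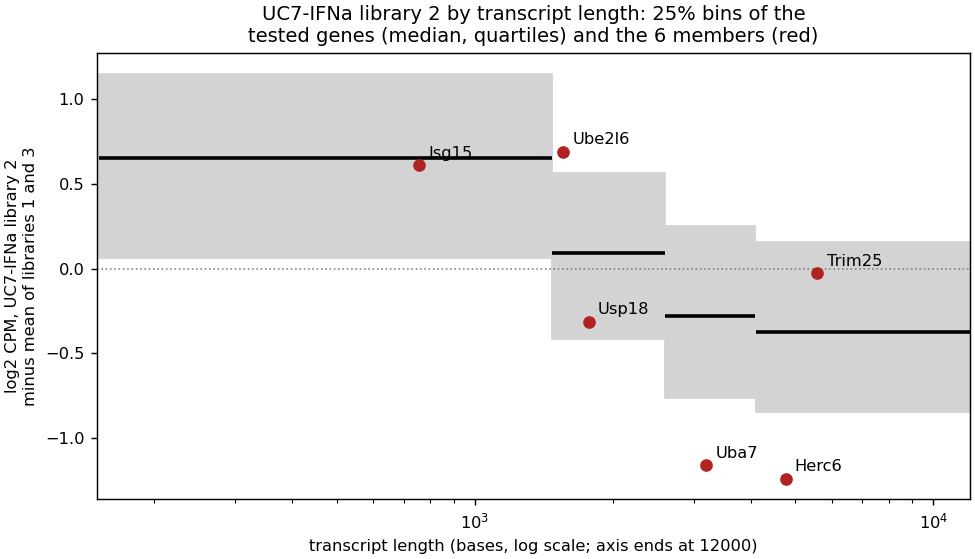
Log2 CPM in UC7-IFNa library 2 minus the mean of libraries 1 and 3 against transcript length, as the median (line) and quartiles (grey) of each 25% of the tested genes, with the 6 members in red. The medians run from 0.65 in the shortest 25% to -0.37 in the longest, and Uba7 and Herc6 lie below the lower quartile of genes of like length.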

How the data were processed

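RNA counts of 13 libraries of sorted intestinal gamma delta lymphocytes were analysed from 2 deposited tables. In the submitters' processing notes stand mm39, DESeq2, Partek and STAR 2.7.8a, with no roles. The authors' first table held expected counts per gene, unscaled, of which 37.3% were not whole at a tolerance of 0.01. Their second, a deposited signal of normalized counts, equals the first over a constant for each library and served only as an alternative scaling. Groups came from the sample titles.

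Counts were rounded, filtered with filterByExpr by group (minimum count 10), TMM-scaled and fitted with edgeR 4.0.16 (robust quasi-likelihood, R 4.3.3), 1 coefficient per group over all 13 libraries; the scripts were tested on simulated data. Tests were two-sided F tests, Benjamini-Hochberg adjusted over the 15835 genes of a contrast, threshold 0.05. SE is the size of the log2 fold change divided by the square root of F. Member CPM are TMM-scaled; marker and sex-linked sums are not. The members, lists and tests were chosen with earlier results of these data known. Named genes were the 6 members, the 4 genes nearest to each by RMS among genes averaging at least 1 in log2 CPM, of which the text gives 2 for each member, and from each list the called genes or else the 2 with the smallest p, given for some lists only. The list genes Ifnar1, Ifnar2, Stat2, Rnf135 and Usp21 were named outside this rule. A few results are not reported here, some of list genes. Of the 63 list genes, 1 was matched through a synonym. Promoters and transcript lengths (GRCm38) were used apart from the mm39 positions. Alternatives were other scalings, no filter, DESeq2 1.42.0, a replicate block, only the groups compared, a Y-linked covariate, and left-out libraries.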

Additional observations from a re-analysis of the deposited data

How the results depend on the processing

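Usp18 kept its direction and its call in both IFNa contrasts under all 21 alternatives of each, at log2 fold changes of 3.13 to 3.41 after UC7-13D5 and 1.98 to 2.54 after IgG. The members called after UC7-13D5, 3 in the report, were 6 with DESeq2, 1 when only the groups compared were fitted, and 2 to 5 when 1 library was left out. After IgG the 2 became 4 with only the groups compared, 1 without IgG-IFNa libraries 3 and 4, 1 with the Y-linked covariate, and 1 to 5 with 1 library left out. Averaged over antibodies the 6 became 3 with the replicate block and 3 to 6 with 1 library left out. Over all genes, the 57 called after UC7-13D5 became 141 with DESeq2, 34 with the replicate block, 22 with only the groups compared and 29 to 110 with 1 library left out. The 131 after IgG became 406, 27 and 343 under the same 3 alternatives, 21 without IgG-IFNa libraries 3 and 4, 23 with the covariate and 24 to 430 with 1 library left out. The 315 averaged over antibodies became 777 with DESeq2, 146 with the block, 131 without IgG-IFNa libraries 3 and 4, 170 with the covariate and 172 to 933 with 1 library left out. Between UC7-13D5 and IgG with IFNa the 12 became 120, 1 and 0 (DESeq2, block, only the groups compared), 6 without IgG-IFNa libraries 3 and 4, 5 with the covariate and 0 to 52 with 1 library left out. With PBS the 1 became 0 with no filter, 69 with DESeq2, 19 with only the groups compared, 5 without IgG-IFNa libraries 3 and 4 and 0 to 4 with 1 library left out. The interaction's 0 became 5 with DESeq2 and 0 to 1 with 1 library left out. Of the fits with 1 library left out, those without UC7-IFNa library 2 called the most genes in the 3 IFNa contrasts. The causes were not tested.

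Directions that turned were all among uncalled differences between antibodies. With IFNa, Herc6 stood at -0.051 with the block, -0.13 without IgG-IFNa libraries 3 and 4 and -0.19 to 0.39 with 1 library left out, Isg15 at -0.0025 to 0.35 and Uba7 at -0.0082 to 0.49 with 1 library left out. With PBS and the covariate, Uba7 stood at 0.15, Ube2l6 at 0.33, Herc6 at 0.33 and Usp18 at 0.41, and Ube2l6 at -0.11 to 0.098 with 1 library left out. The covariate nearly follows the antibody, so the values with it lean on IgG-IFNa libraries 3 and 4.

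Replicate numbers recur across groups, but the 18 pairs of libraries that share a number had deviations from their group means that correlated at -0.21 to 0.13, with 2 over 0.1, and 1 library correlated best with its own number, so the numbers were not taken to pair the samples. With the replicate block Isg15 after UC7-13D5 had a log2 fold change of 1.27 (edgeR adjusted p = 0.0505). A left-out library changes the count of libraries as well as the estimate. Depth limits Usp18 most, at 35 to 476 counts per library.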
